A study of Mus musculus with 9 samples.

Results

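The genes described here sense, signal or repair damage to DNA, and they were followed in the substantia nigra of mice after long exposure to methylphenidate (MPH), a stimulant that blocks the dopamine and noradrenaline transporters. They are a list of 44 genes chosen by name. A gene entered through every probe set (a group of short probes for 1 transcript) that the annotation of the array assigns to that gene alone. This gave 43 of the 44 genes with 85 probe sets, out of 17097 genes with 28898 such probe sets on the array, and Ercc6 was left out because no probe set names it alone. Where a gene has several probe sets, the brightest over all arrays stands for it in the counts. By role, 10 of the 43 act in nucleotide excision repair, 10 in base excision and single-strand break repair, 10 in double-strand break repair, 4 are checkpoint kinases, 4 act in mismatch repair or direct reversal, and 5 are genes of the damage and stress response.

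Cells meet each kind of damage with a different machinery. Nucleotide excision repair cuts out a stretch of strand around bulky lesions, base excision repair replaces single oxidised or deaminated bases, and breaks of both strands are joined end to end or copied from the sister strand. Oxidised bases are the lesion most often discussed for dopamine neurons, since the breakdown and oxidation of dopamine yields hydrogen peroxide and reactive quinones, and neurons, which no longer divide, depend on the excision pathways and on end joining. Severe damage also activates the kinases Atm and Atr and the transcription factor p53, which raises transcripts such as Cdkn1a and Mdm2.

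Swiss Webster mice were injected once a day with saline or with MPH at a dose of 1 or of 10 mg/kg, on a school-day schedule from 4 weeks of age for 3 months. After a washout of 1 week the dissected substantia nigra was hybridised to Affymetrix HT MG-430 PM arrays. There were 3 groups of 3 arrays, with no genetic change in any of them named by the labels, and nothing in the labels says whether an array holds 1 mouse or a pool, so the p-values measure the spread between these samples. The groups are named by their deposited labels. The gene lists that the study gives for either dose seemed to hold the differences of the arrays labelled with the other dose. Whether the labels or the lists are exchanged is not known here, so the dose behind each label is uncertain. All values below are log2 intensities made by the authors with Robust Multichip Average, and a difference is a group mean minus the saline mean on that scale. Probe sets without a target in the mouse had a median of 2.93 and a 95th percentile of 3.63. The values of 42 of the 43 genes lay above that percentile on all 9 arrays, the exception being Fancd2 at 3.41 to 3.85, which reached into the background.

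Some arrays and cell type markers stood apart, and these facts touch every result. The 12 markers of dopamine neurons together had high array means (8.94 to 9.23 in saline), as the labelled tissue requires. All 12 had lower means in both MPH groups, with a median difference of -0.65 in the 1 mg/kg-labelled arrays and -0.45 in the 10 mg/kg-labelled ones. Their summed intensity was 17410 to 20121 in the saline arrays, 13875 to 14186 in the 1 mg/kg-labelled arrays and 13735 to 14824 in the 10 mg/kg-labelled ones. None of the 12 was at background, but the dimmest, Pitx3, was close to it at 3.65 to 4.30. The widest marker shift was that of serotonin neurons, with 2 of 2 markers lower in both (median -2.30, summed 18.1 to 29.0, and -1.89, summed 21.8 to 56.8, against 35.7 to 263 in saline), where Tph2 had the lowest difference of all 17097 genes in both comparisons. Of 5 thalamic markers, all 5 had higher means in the 1 mg/kg-labelled arrays (median 1.05, summed 2356 to 3323 against 729 to 2416 in saline). Of 8 microglial markers, all 8 had lower means in the 10 mg/kg-labelled arrays (median -0.23, summed 905 to 1182 against 1132 to 1466). Of 9 oligodendrocyte markers, 7 had lower means there (median -0.28, summed 18546 to 23790 against 23839 to 25865). Of 9 markers of forebrain excitatory neurons, 8 had higher means there (median 0.53, summed 1583 to 2377 against 1264 to 1364). In the 1 mg/kg-labelled arrays 5 of these 9 were higher and 4 lower (median 0.11), and the summed intensity, 1570 to 1831, was also above saline. Of 10 immediate-early genes, 4 had higher means in the 1 mg/kg-labelled arrays (median -0.03) and 8 in the 10 mg/kg-labelled ones (median 0.29). Replicate 1 of that label had the highest forebrain mean, 6.81 against 5.62 to 6.06 in the other 8, and the array labelled 1 mg/kg replicate 2 had a female pattern, with Xist at 9.0 against 2.99 to 4.62 elsewhere and Eif2s3y, on the Y chromosome, at 4.11 against 6.59 to 7.73. The difference between the 3' and the 5' probe sets of Actb, which grows as RNA degrades, was 0.882 to 0.934 in saline and 1.027 to 1.187 in the 6 MPH arrays, so by this measure RNA quality and treatment cannot be told apart. The same difference for Gapdh overlapped, at 0.231 to 0.387 in saline and 0.224 to 0.409 in the MPH arrays. In such tissue samples fewer cells of a type and less RNA per cell cannot be told apart either.

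Promoter sequence was read for these genes alongside the array values. The 250 bases ahead of the transcription start were read from RefSeq (GRCm38.p6), which held a window for 36 of the 43 genes, and both strands were searched. The p53 response element decamer, searched by its degenerate consensus, was found in 3 of the 5 response genes (Cdkn1a, Gadd45a and Mdm2) and in 0 of the 31 other genes with a window. That was 8.33% of the 36 genes, near the 7.13% of all 32851 windows and the 8.2% of all genes with a window. Ddb2, Ercc3, Fancd2, Nbn, Polb, Rad50 and Xpc had no window and were not searched. The TATA box letters TATAAA were found in Gadd45b, Gadd45g and Brca2 (8.33% of the 36), against 12.4% of all windows and 14.3% of all genes with a window. The GC box letters GGGCGG, usual in genes that are on in every cell, were in 25 of the 36 genes (69.4%), against 32.7% of all windows and 35.4% of the 27025 genes with a window. The letters CCAAT were in 19 of 36 (52.8%, against 33.8% of windows and 37.5% of genes). The E2F site letters TTTCCCGC were in 3 (Brca2, Chek2 and Xrcc6, 8.33%, against 0.895% of windows and 1.03% of genes). Unlike the 36, the 27025 genes with a window were not limited to genes on the array or above background here. The shares therefore do not compare repair genes with other genes measured in this tissue. The windows of the 5 response genes are shown because they are the genes whose transcripts damage is known to raise. Capitals mark the p53 decamers in the first 3 and the TATA box in the last 2, each sequence running 5′ to 3′ on the strand of its gene.
Cdkn1a, chr17:29090729-29090978, plus strand: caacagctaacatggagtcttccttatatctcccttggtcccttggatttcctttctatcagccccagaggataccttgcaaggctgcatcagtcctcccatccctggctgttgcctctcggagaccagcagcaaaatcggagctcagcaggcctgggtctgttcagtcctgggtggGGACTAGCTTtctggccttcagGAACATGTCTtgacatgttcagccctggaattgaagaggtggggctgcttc
Mdm2, chr10:117710759-117711008, minus strand: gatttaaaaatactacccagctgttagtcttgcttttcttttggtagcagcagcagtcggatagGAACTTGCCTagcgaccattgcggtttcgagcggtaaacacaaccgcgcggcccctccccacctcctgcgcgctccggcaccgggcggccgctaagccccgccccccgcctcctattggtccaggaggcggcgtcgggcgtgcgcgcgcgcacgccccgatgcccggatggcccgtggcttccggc
Gadd45a, chr6:67037408-67037657, minus strand: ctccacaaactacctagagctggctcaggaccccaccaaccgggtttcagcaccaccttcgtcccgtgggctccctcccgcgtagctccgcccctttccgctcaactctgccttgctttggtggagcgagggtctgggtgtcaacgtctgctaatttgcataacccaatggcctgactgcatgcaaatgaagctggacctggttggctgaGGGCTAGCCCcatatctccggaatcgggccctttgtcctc
Gadd45b, chr10:80929841-80930090, plus strand: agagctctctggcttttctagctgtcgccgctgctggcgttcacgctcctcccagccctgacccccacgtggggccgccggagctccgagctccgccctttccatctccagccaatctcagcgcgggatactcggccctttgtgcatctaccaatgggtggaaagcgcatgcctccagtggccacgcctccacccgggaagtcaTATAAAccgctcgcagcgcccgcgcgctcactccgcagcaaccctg
Gadd45g, chr13:51846425-51846674, plus strand: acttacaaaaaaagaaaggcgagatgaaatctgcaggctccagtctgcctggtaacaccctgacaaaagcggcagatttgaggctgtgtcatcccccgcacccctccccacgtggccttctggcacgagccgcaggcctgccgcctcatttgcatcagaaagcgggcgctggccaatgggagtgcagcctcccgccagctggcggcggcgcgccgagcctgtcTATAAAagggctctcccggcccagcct
A match of letters is a description and not a site of binding. Cdkn1a has 2 annotated windows, of which the one with 2 decamers is printed.

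No DNA damage or repair gene passed the test in either comparison with saline. With limma over all 45037 probe sets, the replicate number as a block and adjustment by Benjamini and Hochberg, 0 of the 43 genes were called in the 1 mg/kg-labelled arrays and 0 in the 10 mg/kg-labelled ones, as were 0 of all probe sets (0%). Without the replicate block the genes called were still 0 and 0, while 54 (0.12%) and 115 (0.255%) of all probe sets passed. At an unadjusted p of 0.05 or less, 1 gene was higher (Polb) and 2 were lower (Xpc and Lig1) in the 1 mg/kg-labelled arrays, where 3.32% of all 17097 genes were higher and 7.4% lower. In the 10 mg/kg-labelled arrays, 0 were higher and 5 lower (Xpc, Ddb1, Parp1, Rad50 and Ercc2), where 3.28% of all genes were higher and 6.95% lower. Together that was 6.98% and 11.6% of the 43 genes, beside 10.7% and 10.2% of all genes. Without the replicate block, 6 genes were higher and 7 lower at that p in the 1 mg/kg-labelled arrays, where 6.62% and 12.9% of all genes were. In the 10 mg/kg-labelled ones, 1 was higher and 5 were lower, where 6.41% and 12.2% of all genes were. The p-values without the block may be too small, because the deposited values may already lack differences between replicate numbers. The median difference of the 43 genes was -0.03 in the 1 mg/kg-labelled arrays and -0.07 in the 10 mg/kg-labelled ones, beside -0.02 and -0.02 over all genes. Differences ran from -0.48 (Lig1) to 0.22 (Rad52) in the first comparison and from -0.31 (Xpc) to 0.31 (Cdkn1a) in the second.

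**Figure D1:**
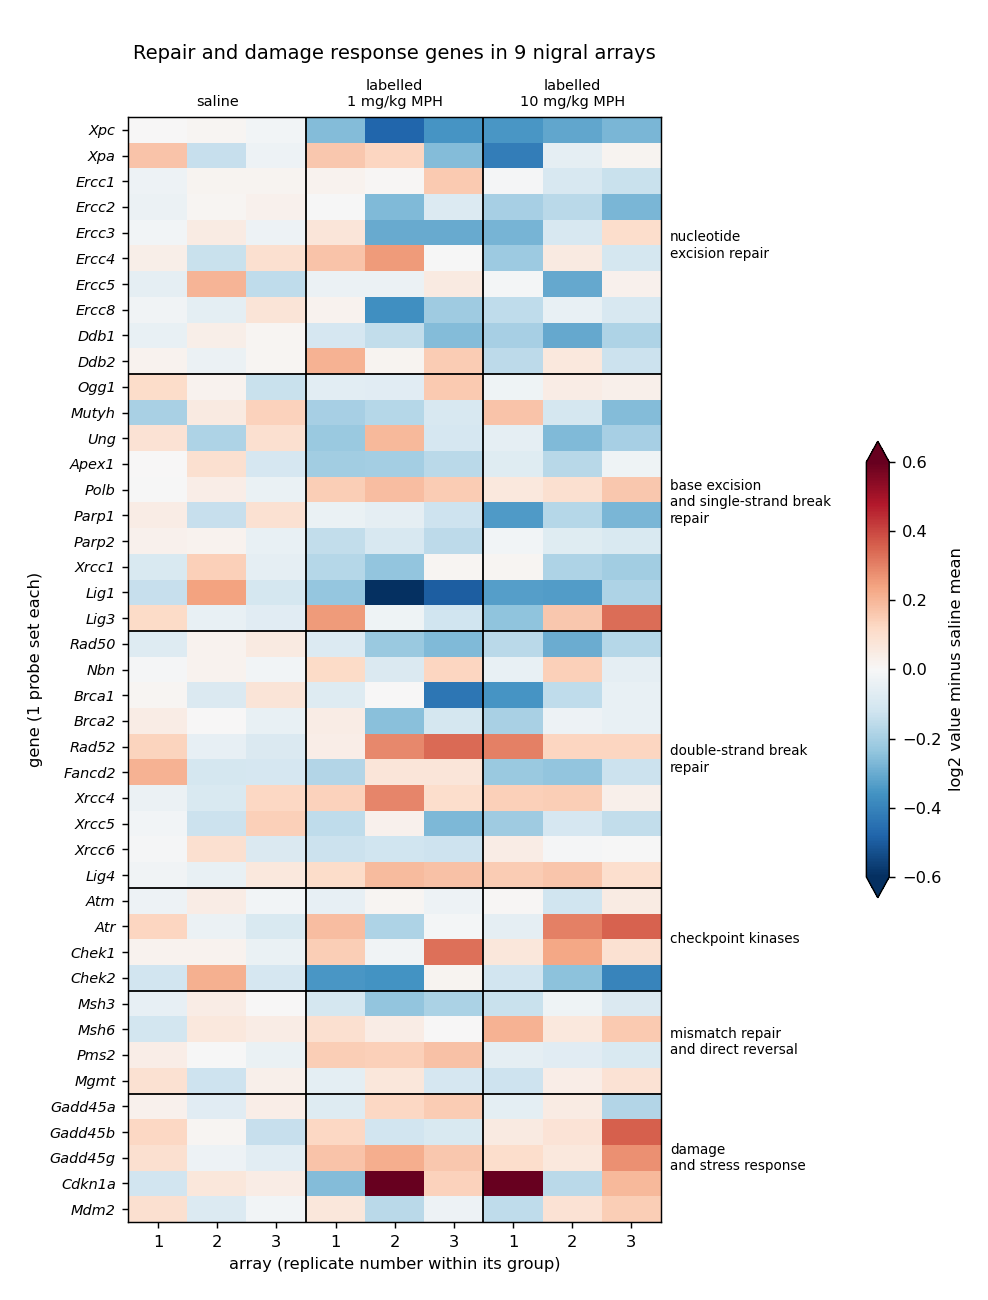
Log2 value of each of the 43 genes (rows, by role) on each of the 9 arrays (columns) minus the mean of the 3 saline arrays, with blue below and red above saline. The row of Xpc is blue on all 6 MPH arrays, and the row of Cdkn1a is dark red on only 2 of them, labelled 1 mg/kg replicate 2 and 10 mg/kg replicate 1.

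Both comparisons use the same 3 saline arrays, so a like direction in both is no independent evidence. In the 1 mg/kg-labelled arrays, 4 genes had all 3 arrays above all saline arrays (Polb, Pms2, Lig4 and Gadd45g, where 8.97% of all genes did) and 8 had them below (Xpc, Lig1, Msh3, Apex1, Rad50, Ddb1, Parp2 and Xrcc6, where 15.3% did). In the 10 mg/kg-labelled ones, 3 were above (Lig4, Polb and Chek1, against 8.75% of all genes) and 8 below (Xpc, Ddb1, Parp1, Rad50, Ercc2, Lig1, Fancd2 and Pms2, against 15.8%). On all 6 MPH arrays, 4 of the 43 genes were below every saline array (Xpc, Ddb1, Lig1 and Rad50, against 7.8% of all genes) and 2 above (Polb and Lig4, against 3.4%). These shares were near those of the array as a whole.

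On the brightest probe sets, nucleotide excision repair held the gene with the smallest p in both comparisons. Xpc encodes the protein that finds helix-distorting lesions across the genome and starts this pathway. Its values were 6.90, 6.91 and 6.88 in the saline arrays, 6.63, 6.42 and 6.54 in the 1 mg/kg-labelled arrays and 6.55, 6.58 and 6.62 in the 10 mg/kg-labelled ones. The saline arrays lay close together and above all 6 MPH arrays, with replicate 2 of the 1 mg/kg label the lowest. The difference was -0.36 (standard error 0.08, 95% limits -0.54 to -0.18), 0.777 of the saline level, in the 1 mg/kg-labelled arrays and -0.31 (95% limits -0.49 to -0.13), 0.806 of it, in the 10 mg/kg-labelled ones. Adjusted p from limma was 0.378 and 0.424, and 0.0626 and 0.0755 without the replicate block. The exact two-sided permutation p was 0.1 in both, the smallest that 3 arrays against 3 allow. Without the pair of arrays that stand apart the differences were -0.31 and -0.28, and Xpc has only 1 probe set, so no second one could be set beside it.

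Ddb1, which carries Ddb2 and other receptors on the Cul4 ubiquitin ligase, is the other gene of this pathway with all 6 MPH arrays below saline. Its values were 9.73, 9.81 and 9.79 in saline, 9.68, 9.63 and 9.52 in the 1 mg/kg-labelled arrays and 9.58, 9.47 and 9.59 in the 10 mg/kg-labelled ones. The groups did not overlap, but the nearest arrays were within 0.1 of each other. The differences were -0.17 and -0.23 (standard error 0.08, adjusted p = 0.514 and 0.463, limma). Ddb2, the partner that binds ultraviolet lesions, had values of 6.57, 6.51 and 6.56 in saline, 6.75, 6.56 and 6.70 in the 1 mg/kg-labelled arrays and 6.39, 6.61 and 6.42 in the 10 mg/kg-labelled ones. Its arrays overlapped with saline in both, with differences of 0.13 and -0.07 (standard error 0.09), and its second probe set had -0.10 and -0.24. The direction of Ddb2 in the first comparison thus depended on the probe set.

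The other 7 nucleotide excision genes did not stand out. Xpa verifies the lesion, Ercc2 and Ercc3 are the helicases of the TFIIH complex, Ercc1 with Ercc4 and Ercc5 are the nucleases that cut on either side, and Ercc8 recruits the pathway to stalled transcription. In the 1 mg/kg-labelled arrays, 4 of the 10 genes of the pathway had positive and 6 negative differences on their brightest probe sets, with a median of -0.06. Each of these 4, Xpa, Ercc1, Ercc4 and Ddb2, also had negative probe sets there, the lowest at -0.05, -0.19, -0.28 and -0.10. Ercc1 and Ercc4 had a further positive one near background. The mixed directions at this label thus depended on the choice of probe set. In the 10 mg/kg-labelled ones all 10 were negative on their brightest probe sets (median -0.10), from -0.31 for Xpc to -0.07 for Ddb2, where 56% of all genes were negative. Ercc2, described after its values were seen, was the only one besides Xpc and Ddb1 with an unadjusted p of 0.05 or less there (-0.21, standard error 0.09, adjusted p = 0.516, limma), and its second probe set had -0.09. Without the array labelled 10 mg/kg replicate 1, Ddb2 was at -0.0072. Xpa, Ercc1 and Ercc4 each had a dimmer probe set with a positive difference in the 10 mg/kg-labelled arrays (0.05, 0.15 and 0.09). Those of Ercc1 and Ercc4 lay within the background, and the other probe sets of these genes were negative.

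**Figure D2:**
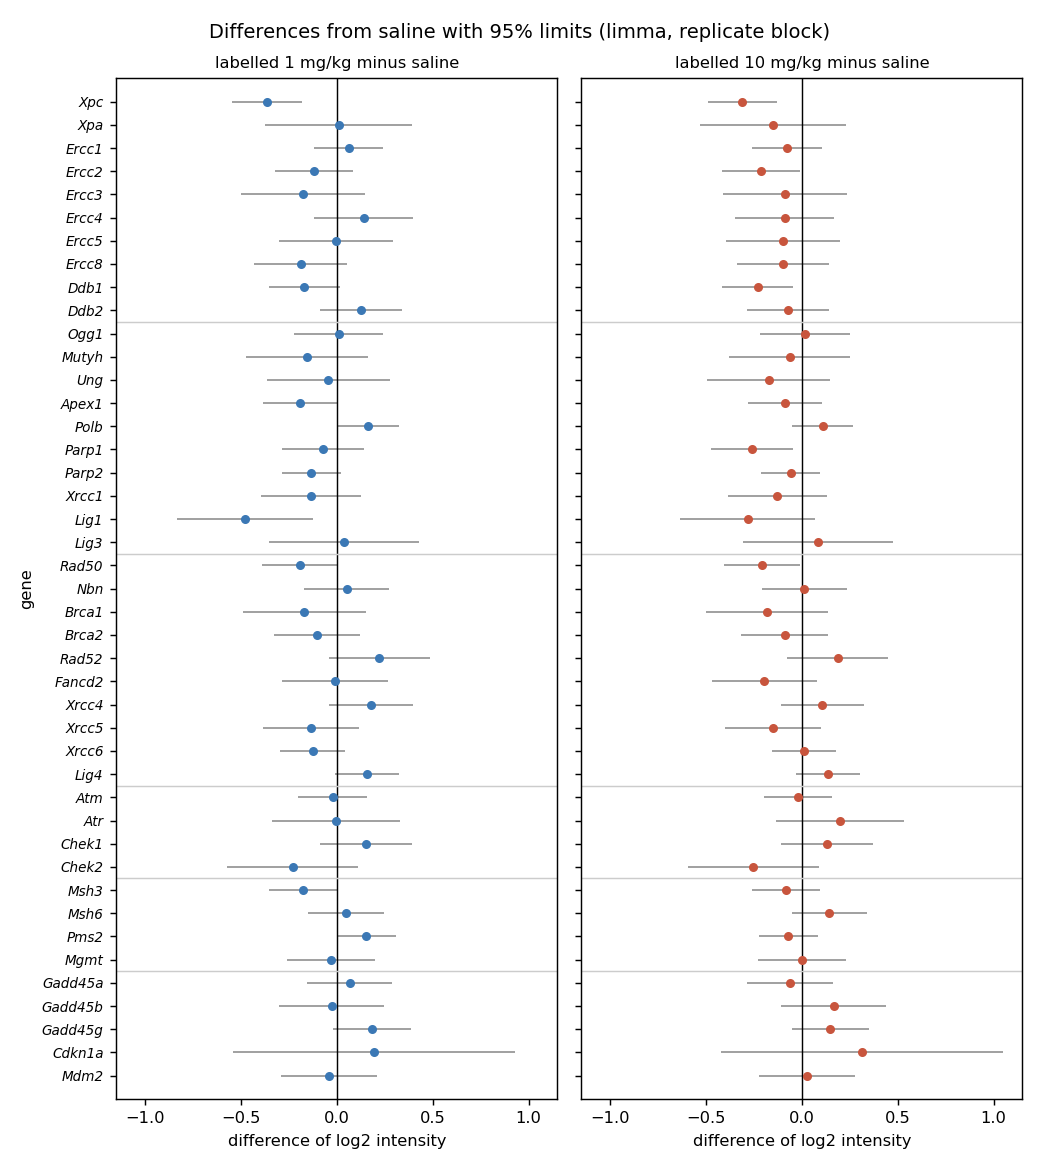
Difference of each gene from saline on the log2 scale (horizontal axis) in the 1 mg/kg-labelled arrays (left) and 10 mg/kg (right), with 95% limits from limma with the replicate block, grouped by role from top to bottom. Most limits include 0, those of Xpc lie below 0 in both panels, and those of Cdkn1a are the widest.

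In base excision and single-strand break repair, 3 of 10 genes had positive and 7 negative differences in each comparison, with medians of -0.10 and -0.08. Lig1, which seals nicks in long-patch repair and between Okazaki fragments, had the lowest difference of all 43 genes in the 1 mg/kg-labelled arrays. Its values were 6.79, 7.17 and 6.82 in saline, 6.69, 6.22 and 6.43 in the 1 mg/kg-labelled arrays and 6.60, 6.59 and 6.74 in the 10 mg/kg-labelled ones. Saline replicate 2 was far above the other 2, the array labelled 1 mg/kg replicate 2 was the lowest, and the lowest saline and the highest MPH array were within 0.1 of each other. The differences were -0.48 and -0.28 (standard error 0.15, adjusted p = 0.418 and 0.579, limma). They were -0.29 and -0.09 without saline replicate 2, and -0.32 in the 1 mg/kg-labelled arrays without the array of female pattern. Lig3, the ligase of short-patch repair, had 0.04 and 0.09 (standard error 0.17) on the brightest of its 5 probe sets, and others of them had the other sign.

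Polb, the polymerase that fills the gap after a damaged base is cut out, was the gene of this group with higher values on all 6 MPH arrays. Its values were 7.97, 8.01 and 7.94 in saline, 8.12, 8.16 and 8.13 in the 1 mg/kg-labelled arrays and 8.04, 8.07 and 8.14 in the 10 mg/kg-labelled ones. The groups did not overlap, although the highest saline and the lowest MPH array were close. The differences were 0.16 and 0.11 (standard error 0.07, adjusted p = 0.479 and 0.628, limma). The second Polb probe set had 6.69, 6.75 and 6.73 in saline, 6.96, 7.07 and 7.04 in the 1 mg/kg-labelled arrays and 7.14, 6.95 and 7.15 in the 10 mg/kg-labelled ones. It showed a clearer gap between saline and MPH arrays, with differences of 0.30 and 0.35 (standard error 0.08, adjusted p = 0.4 and 0.405, limma). Its unadjusted limma p in the 10 mg/kg-labelled arrays, 0.0029, was smaller than that of Xpc there, 0.0044.

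Parp1, which senses strand breaks and builds poly(ADP-ribose) chains on them, had values of 7.61, 7.42 and 7.65 in saline, 7.52, 7.51 and 7.44 in the 1 mg/kg-labelled arrays and 7.22, 7.39 and 7.29 in the 10 mg/kg-labelled ones. The 1 mg/kg-labelled arrays overlapped with saline, and the 10 mg/kg-labelled ones lay below it by a small margin. The differences were -0.07 and -0.26 (standard error 0.09, adjusted p = 0.815 and 0.468, limma), and the other 2 probe sets had -0.29 and -0.38 in the first comparison and -0.17 and -0.42 in the second. Thus all 3 probe sets of Parp1 had lower means in both MPH groups. Its relative Parp2 had -0.13 and -0.06.

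The glycosylases and the nuclease that open the pathway had small differences on their brightest probe sets. Ogg1, which removes oxidised guanine, had values of 4.95, 4.86 and 4.71 in saline, 4.78, 4.77 and 5.00 in the 1 mg/kg-labelled arrays and 4.82, 4.88 and 4.87 in the 10 mg/kg-labelled ones. All groups overlapped, with differences of 0.0088 and 0.02 (standard error 0.10), while its dimmer probe set had -0.31 (standard error 0.09) and -0.07. Mutyh, which removes adenine opposite oxidised guanine, had -0.16 and -0.06, and Ung, which removes uracil, had -0.04 and -0.17 (standard error 0.14 for both genes). Apex1, the endonuclease that nicks the strand at the empty site, had values of 8.51, 8.60 and 8.41 in saline, 8.30, 8.30 and 8.35 in the 1 mg/kg-labelled arrays and 8.43, 8.34 and 8.48 in the 10 mg/kg-labelled ones. The 1 mg/kg-labelled arrays were all below saline and the others overlapped with it, with differences of -0.19 and -0.09 (standard error 0.08, adjusted p = 0.486 and 0.748, limma). The scaffold Xrcc1 had -0.13 and -0.13 (standard error 0.11).

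**Figure D3:**
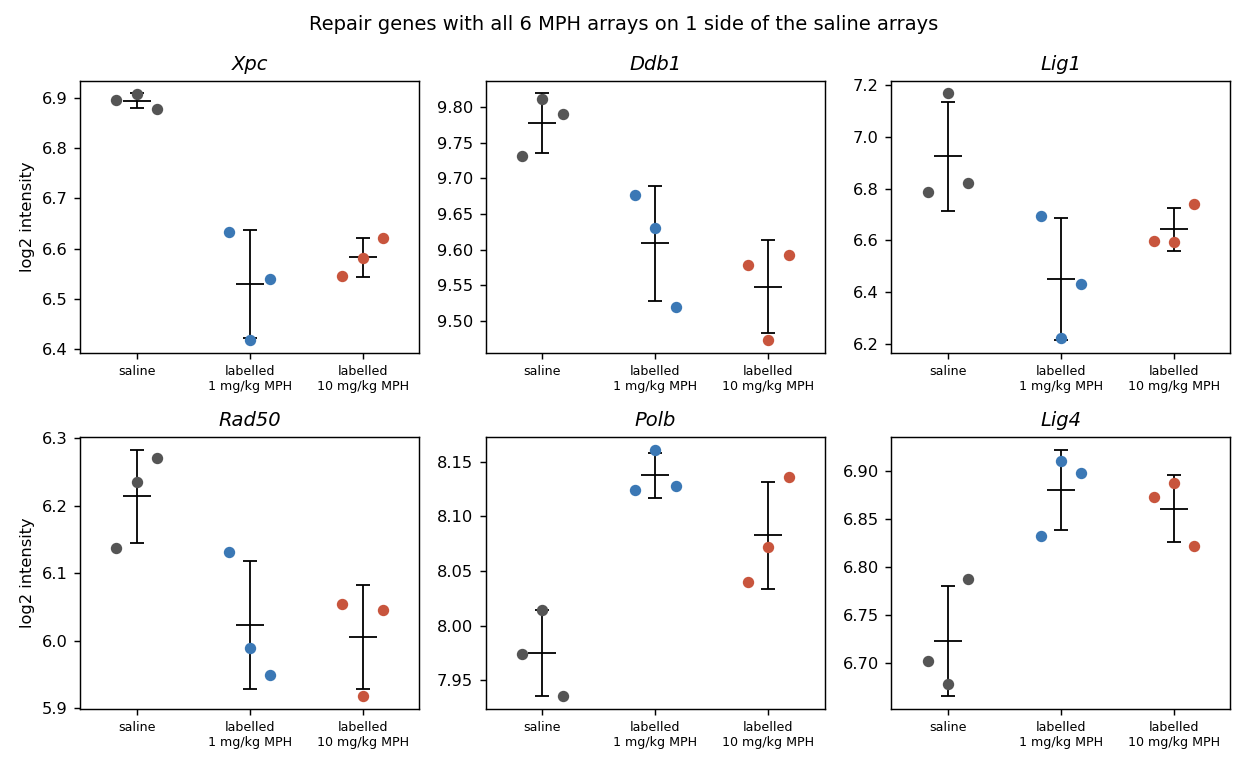
Log2 intensity (vertical axes, each with its own range) of the 6 genes whose 6 MPH arrays all lay on 1 side of the 3 saline arrays. Points are arrays in the order of their replicate numbers, the long bar is the group mean and the whiskers are ± 1 SD (n = 3 arrays). The gap to saline is widest for Xpc, narrow for the other genes and narrowest for Rad50.

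Double-strand break genes were split in direction. Of the 10, 4 had positive and 6 negative differences in the 1 mg/kg-labelled arrays (median -0.06), and 5 and 5 in the 10 mg/kg-labelled ones (median -0.04). Rad50, the clamp of the complex that holds broken ends, had values of 6.14, 6.24 and 6.27 in saline, 6.13, 5.99 and 5.95 in the 1 mg/kg-labelled arrays and 6.05, 5.92 and 6.05 in the 10 mg/kg-labelled ones. The MPH arrays were below saline by the narrowest of margins, since 1 array of the 1 mg/kg label nearly met the lowest saline array. The differences were -0.19 and -0.21 (standard error 0.08, adjusted p = 0.491 and 0.51, limma), and -0.07 and -0.09 on the second probe set. Its partner Nbn had 0.05 and 0.01 (standard error 0.09).

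Lig4, the ligase of end joining, had the opposite order. Its values were 6.70, 6.68 and 6.79 in saline, 6.83, 6.91 and 6.90 in the 1 mg/kg-labelled arrays and 6.87, 6.89 and 6.82 in the 10 mg/kg-labelled ones. All 6 MPH arrays were above saline, the nearest by a small step. The differences were 0.16 and 0.14 (standard error 0.07, adjusted p = 0.5 and 0.568, limma). Xrcc4, which binds Lig4, had 0.18 and 0.11 (standard error 0.09) and the same sign on its second probe set (0.14 and 0.14). The Ku subunits that hold the ends for this ligase had -0.13 and -0.15 (Xrcc5, standard error 0.11) and -0.13 and 0.01 (Xrcc6, standard error 0.07). Of the recombination genes, Rad52 had 0.22 and 0.19, Brca1 -0.17 and -0.18, Brca2 -0.10 and -0.09, and Fancd2, near background, -0.01 and -0.20, with standard errors of 0.10 to 0.14. The second Rad52 probe set, about as bright, had 0.04 and -0.13. Brca1 and Fancd2 also had dimmer probe sets of the other sign in both comparisons.

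Checkpoint kinases showed no common direction. Atm, which answers double-strand breaks, varied least of all 43 genes, with all 9 arrays between 6.65 and 6.82 and differences of -0.02 and -0.02 (standard error 0.08). Atr, which answers stalled replication forks, had -0.0041 and 0.20 (standard error 0.14), and its other 2 probe sets had 0.34 and 0.17 in the first comparison and 0.05 and -0.22 in the second. Chek1, the effector of Atr, had values of 3.83, 3.83 and 3.77 in saline, 3.96, 3.79 and 4.14 in the 1 mg/kg-labelled arrays and 3.87, 4.04 and 3.90 in the 10 mg/kg-labelled ones. The 10 mg/kg-labelled arrays were above saline and the others overlapped, all only a little over background, with differences of 0.15 and 0.13 (standard error 0.10, adjusted p = 0.637 and 0.697, limma) and other signs among its 5 probe sets. Chek2, the effector of Atm, had -0.23 and -0.25 (standard error 0.15).

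In mismatch repair, Pms2 was the gene whose 2 MPH groups lay on opposite sides of saline. Pms2 encodes a subunit of the endonuclease that acts after a mismatch is found. Its values were 6.59, 6.54 and 6.50 in saline, 6.69, 6.69 and 6.72 in the 1 mg/kg-labelled arrays and 6.49, 6.47 and 6.45 in the 10 mg/kg-labelled ones. All 1 mg/kg-labelled arrays were above and all 10 mg/kg-labelled ones below the 3 saline arrays, without overlap. The differences from saline were 0.15 and -0.07 (standard error 0.07, adjusted p = 0.485 and 0.746, limma). The 10 mg/kg-labelled arrays were lower than the 1 mg/kg-labelled ones by -0.23 (95% limits -0.38 to -0.07, adjusted p = 0.774, limma). The other 2 probe sets of Pms2, both dim, had 0.0042 and -0.06 in the first comparison and -0.06 and 0.07 in the second, and so did not show this order.

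The mismatch sensors did not follow Pms2. Msh3, which binds loops, had values of 6.79, 6.89 and 6.84 in saline, 6.74, 6.61 and 6.65 in the 1 mg/kg-labelled arrays and 6.71, 6.81 and 6.76 in the 10 mg/kg-labelled ones. The 1 mg/kg-labelled arrays were below saline and the others overlapped with it, with differences of -0.18 and -0.08 (standard error 0.08, adjusted p = 0.485 and 0.74, limma) and positive ones on the dimmest probe set. Msh6, which binds single mismatches, had 0.05 and 0.14 (standard error 0.08). Mgmt, which takes alkyl groups off guanine directly, had -0.03 and 0.0016 (standard error 0.10). Between the MPH groups limma called 0 of the 43 genes in the fit with the block and 0 in the fit that leaves it out (0% of probe sets in both). Only Pms2, 1 of 43 genes, had an unadjusted p of 0.05 or less, where 2.84% of all genes were higher and 2.98% lower in the 10 mg/kg-labelled arrays. Leaving the block out gave 1 higher and 5 lower, beside 5.89% and 6.15% of all genes. Without overlap, 2 genes were higher (Parp2 and Xrcc6, against 8.9% of all genes) and 3 lower (Ercc1, Parp1 and Pms2, against 8.67%).

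Of the damage and stress response genes, Cdkn1a, the p53-driven cell cycle inhibitor, varied most, and more than any other of the 43 genes. Its values were 6.20, 6.38 and 6.36 in saline, 6.05, 7.02 and 6.45 in the 1 mg/kg-labelled arrays and 7.22, 6.15 and 6.51 in the 10 mg/kg-labelled ones. In each MPH group a single array was high, and another lay below all saline arrays. The range over the 9 arrays was 1.17, beside a median of 0.37 over the 43 genes, and 2.43% of all genes had a wider range. The differences were 0.19 and 0.31 (standard error 0.32, 95% limits -0.54 to 0.93 and -0.42 to 1.05, adjusted p = 0.86 and 0.766, limma). The second probe set had 5.79, 5.95 and 6.19 in saline, 5.30, 6.62 and 6.04 in the 1 mg/kg-labelled arrays and 6.98, 5.71 and 5.92 in the 10 mg/kg-labelled ones, and so was high on the same 2 arrays. These are the array of female pattern and the array with high forebrain markers, and without both of them the differences were -0.07 and -0.06 (standard error 0.12). Immediate-early genes, 10 transcripts of recent activity or handling, had array means of 6.01 and 6.28 on these 2 arrays. The means were 5.71 to 5.98 in saline, 5.63 and 5.82 on the other 1 mg/kg-labelled arrays and 5.99 and 6.10 on the other 10 mg/kg-labelled ones. Every 10 mg/kg-labelled array was thus above saline in this mean. The part of these features in the Cdkn1a values was not tested.

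**Figure D4:**
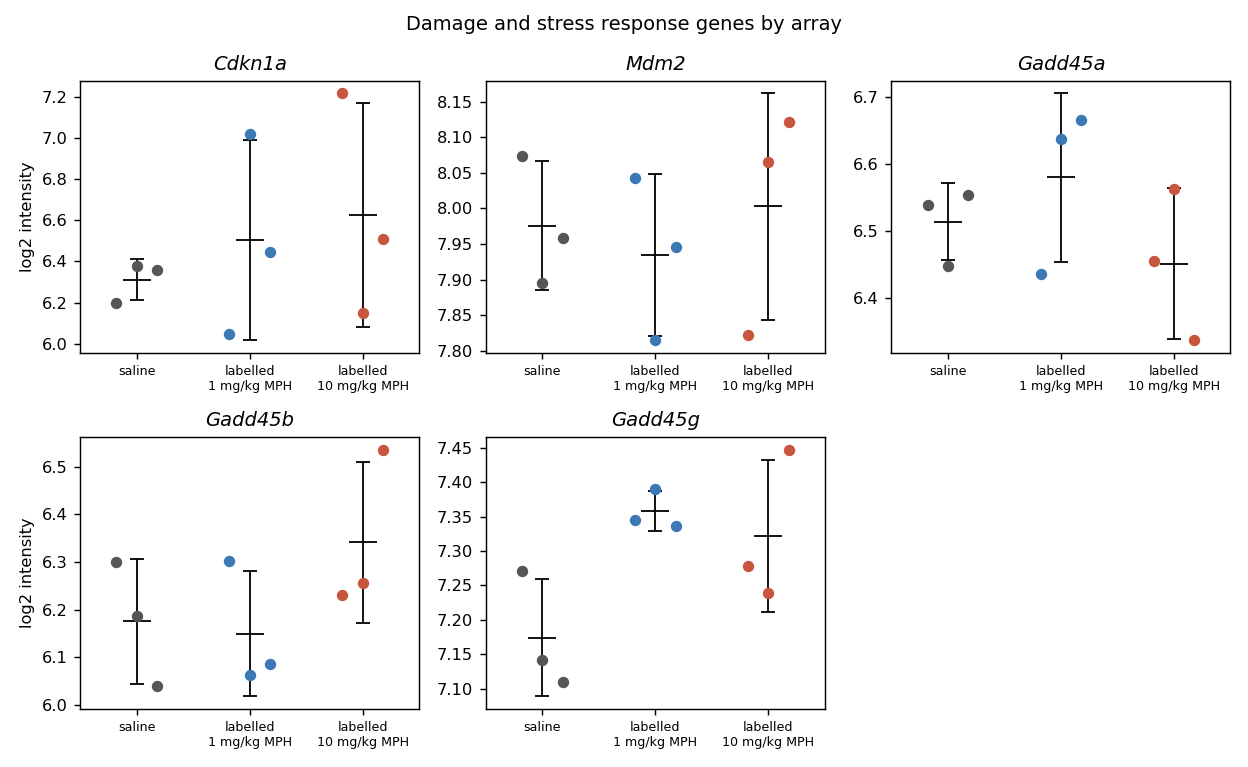
Log2 intensity (vertical axes, each with its own range) of the 5 damage and stress response genes on each array, with group means (long bars) and ± 1 SD (whiskers, n = 3 arrays). The 2 high points of Cdkn1a, 7.02 and 7.22, are replicate 2 of the 1 mg/kg label and replicate 1 of the 10 mg/kg label, and the groups overlap for all 5 genes except Gadd45g in the 1 mg/kg-labelled arrays.

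The other p53 targets with a decamer in the promoter window had small differences. Mdm2, the ubiquitin ligase that p53 induces and that degrades p53, had values of 8.07, 7.89 and 7.96 in saline, 8.04, 7.81 and 7.95 in the 1 mg/kg-labelled arrays and 7.82, 8.06 and 8.12 in the 10 mg/kg-labelled ones. All groups overlapped, the 2 arrays with high Cdkn1a had the lowest Mdm2, and the differences were -0.04 and 0.03 (standard error 0.11). The second Mdm2 probe set had the other sign in both comparisons. Gadd45a, a stress sensor that p53 also induces, had 6.54, 6.45 and 6.55 in saline, 6.44, 6.64 and 6.67 in the 1 mg/kg-labelled arrays and 6.45, 6.56 and 6.34 in the 10 mg/kg-labelled ones. These groups overlapped too, with differences of 0.07 and -0.06 (standard error 0.10).

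Gadd45b and Gadd45g, the relatives with a TATA box, take part in active DNA demethylation and are induced by neuronal activity. Gadd45b had 6.30, 6.19 and 6.04 in saline, 6.30, 6.06 and 6.09 in the 1 mg/kg-labelled arrays and 6.23, 6.26 and 6.54 in the 10 mg/kg-labelled ones. Replicate 3 of the 10 mg/kg label was the highest array, the groups overlapped, and the differences were -0.03 and 0.17 (standard error 0.12). Gadd45g had 7.27, 7.14 and 7.11 in saline, 7.35, 7.39 and 7.34 in the 1 mg/kg-labelled arrays and 7.28, 7.24 and 7.45 in the 10 mg/kg-labelled ones. The 1 mg/kg-labelled arrays were above all saline arrays and the 10 mg/kg-labelled ones overlapped with saline. The differences were 0.18 and 0.15 (standard error 0.09, adjusted p = 0.516 and 0.604, limma). In all, 3 of the 5 response genes had positive differences in the 1 mg/kg-labelled arrays (median 0.07) and 4 of 5 in the 10 mg/kg-labelled ones (median 0.15). Over all genes, 56.2% and 56% had negative ones. The counts are for the brightest probe sets and include Cdkn1a, which was negative in both comparisons without both arrays that stand apart, and Mdm2, whose sign depended on the probe set.

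Several probe sets of a gene often disagreed in sign. Of the 23 genes with more than 1 probe set, 16 had a probe set of the other sign than the brightest in at least 1 comparison. The 7 with a single sign in both were Ercc2, Ercc8, Polb, Parp1, Rad50, Xrcc4 and Cdkn1a. For these genes the direction of the group means did not depend on the probe set, while for Ogg1, Ercc4, Atr, Mdm2 and Pms2 it did.

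**Figure D5:**
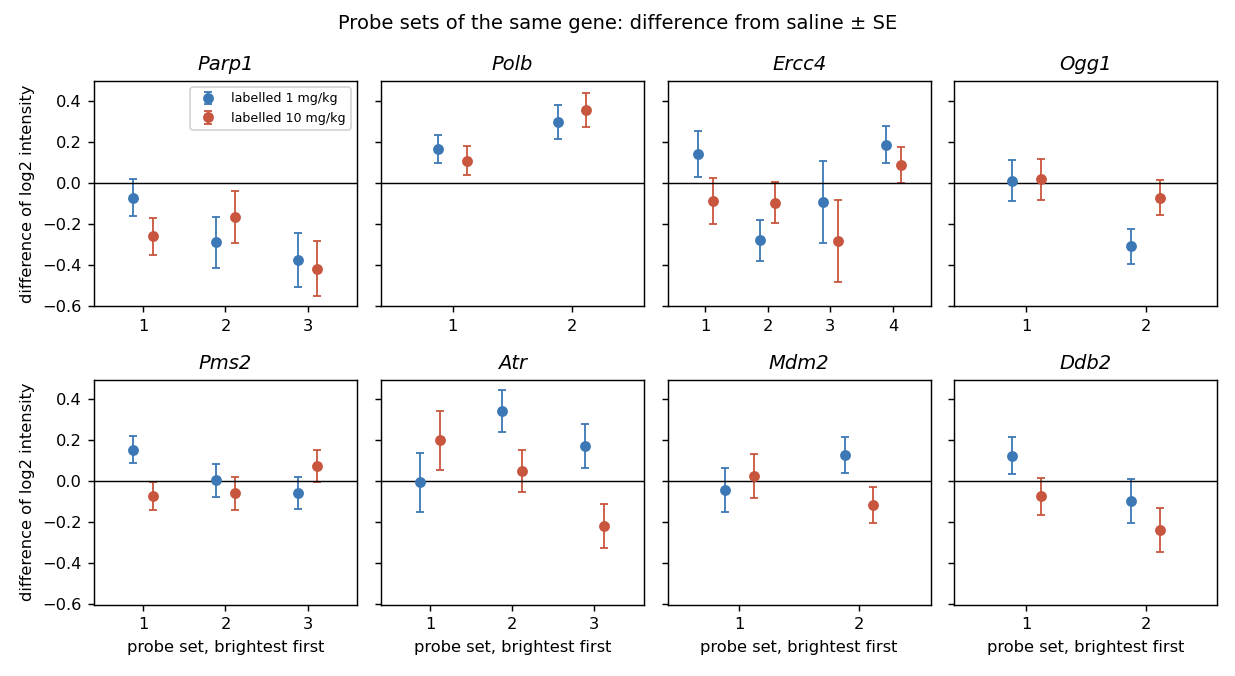
Difference from saline on the log2 scale (vertical axis) ± SE for each probe set, brightest first (horizontal axis), of 8 genes with several probe sets, in the 1 mg/kg-labelled arrays (blue) and 10 mg/kg (red). The 3 probe sets of Parp1 lie below 0 and the 2 of Polb above 0 in both comparisons, and the other 6 genes have probe sets on both sides of 0 in at least 1 comparison.

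Other genes of the same pathways gave a like picture. Of 112 further repair, checkpoint and p53 target genes, 96 were measured, and 0 passed limma's test with the block in either comparison. In the 1 mg/kg-labelled arrays, 1 was higher and 7 were lower at an unadjusted p of 0.05 or less (median of all 96 differences -0.03), and in the 10 mg/kg-labelled ones 3 were higher and 8 lower (median -0.02). Together these were 8.33% and 11.5% of the 96 genes, near the 10.7% and 10.2% of all genes. Without the block, where p-values may be too small, only 1 was called: Tigar, a p53-induced enzyme that diverts sugar to the pentose phosphate pathway. Its values were 7.32, 7.32 and 7.31 in saline, 6.90, 7.0 and 6.94 in the 1 mg/kg-labelled arrays and 7.28, 7.23 and 7.31 in the 10 mg/kg-labelled ones. The 1 mg/kg-labelled arrays lay far below the others, with a difference of -0.37 (standard error 0.07, adjusted p = 0.378 with the block and 0.0472 without it, limma) against -0.04 in the 10 mg/kg-labelled ones. Tdp1, which frees topoisomerase trapped on DNA, had -0.60 and -0.08 (standard error 0.13, adjusted p = 0.378 and 0.876, limma), also low in the 1 mg/kg-labelled arrays.

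Rpa1, the large subunit of the protein that coats single strands in excision repair and recombination, was lower in both. Its values were 9.81, 9.92 and 9.89 in saline, 9.69, 9.57 and 9.54 in the 1 mg/kg-labelled arrays and 9.70, 9.55 and 9.56 in the 10 mg/kg-labelled ones. All 6 MPH arrays were below saline, with differences of -0.28 and -0.27 (standard error 0.08, adjusted p = 0.405 and 0.426, limma). Others named by the same rule were Cdk7, the kinase of TFIIH (0.19 and 0.13), Ei24 (0.14 and 0.02) and Parp3 (0.26 and 0.03), which also stands in a list that the study chose on these arrays. Higher in the 10 mg/kg-labelled arrays were the bypass polymerase Polh (0.29), the checkpoint clamp loader Rad17 (0.19) and Rad23b, the partner of Xpc (0.18). Lower there were the uracil glycosylase Smug1 (-0.28) and the kinase Plk3 (-0.40).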

How the data were processed

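RNA of the substantia nigra was measured on 9 Affymetrix arrays. The authors made the deposited log2 values with Robust Multichip Average, per the methods and labels, and per the methods used ComBat for batch. Whether the deposited values include that step is not given in the sources used here. The replicate number explained less variance than an unrelated number would (median F 0.073 against 0.828). P-values with this block and without it are therefore uncertain. If means per replicate number were already removed, a fit without the block understates the spread, and its p-values are too small. Groups came from the labels. The 45141 probe sets less 104 controls entered 1 linear model (limma 3.58.1, R 4.3.3) of group plus replicate number over 9 arrays, with p adjusted by Benjamini and Hochberg over 45037, at a threshold of 0.05. The platform annotation gave 28898 probe sets 1 gene, 551 several and 15588 none. Deviations of same-numbered arrays correlated at -0.132 to -0.626. Removing a mean per replicate number would itself give negative values, so this does not show whether the numbers pair the arrays. The block was chosen here in place of the ComBat step, and the methods name no block in the linear model. A fit with no replicate block, other normalizations, filters, weights, probe set choices and leaving out each array were alternatives. Genes with per-array values were 9 set by name and the members whose arrays did not overlap with saline and had the smallest p. The members, lists and tests were chosen with earlier results of these data known. Depth does not apply to arrays, whose number limits the precision. The fit was tested on simulated data without a batch and with a random one. Values in which the replicate number explains as little as here were not simulated. That test therefore cannot show whether the p-values with the block hold for these data.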

Additional observations from a re-analysis of the deposited data

Results flagged for a closer look

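Pms2 had every array labelled 1 mg/kg above and every array labelled 10 mg/kg below the saline arrays, a difference of -0.23 between the MPH groups (standard error 0.07, adjusted p = 0.774, limma). Of all 17097 genes, 87 (0.509%) lay on opposite sides of saline in this way, and of the 43 genes only Pms2 did. Its 2 dimmer probe sets had -0.06 and 0.13 between the MPH groups. No other of the per-array values described met a rule for a closer look, and groups of 3 arrays were too small for a search for outlying arrays.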

How the results depend on the processing

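No gene of the 43 passed the adjusted threshold under any alternative run. The number of genes at the unadjusted threshold in the 1 mg/kg-labelled arrays, 3 as reported, was 13 with no replicate block, 5 after a second quantile normalization, 7 with the most variable probe set of a gene, 6 with the mean of its probe sets and 2 to 7 when 1 array was left out. In the 10 mg/kg-labelled arrays, 5 as reported, it was 6 with no replicate block, 3 in the brighter part of the probe sets, 3 with intensity trend and robust option, 8 without both arrays that stand apart (chosen after seeing the data) and 1 to 6 when 1 array was left out. The median difference in the first comparison, -0.026, was -0.045 with array weights, -0.095 with the most variable probe set and -0.098 to 0.015 when 1 array was left out. In the second, -0.073, it was -0.042 without both arrays and -0.08 to -0.05 when 1 was left out. Of the values of 18 named genes, 346 kept their direction and 12 turned under other settings, and 308 kept it and 16 turned when 1 array was left out. Cdkn1a was -0.071 and -0.059 without both arrays, and -0.16 to 0.54 and -0.12 to 0.70 when 1 array was left out. Mdm2 was 0.13 and -0.12 with the most variable probe set, 0.044 and -0.044 with the mean of probe sets, and -0.12 to 0.026 and -0.054 to 0.17 when 1 array was left out. Ogg1 was -0.0028 with array weights in the first comparison, -0.31 and -0.073 with the most variable probe set, -0.15 and -0.028 with the mean, and -0.099 to 0.093 and -0.091 to 0.10 when 1 array was left out. Ddb2 was -0.096 with the most variable probe set in the first comparison. When 1 array was left out, Gadd45a was -0.0089 to 0.15 and -0.14 to 0.027, and Gadd45b was -0.13 to 0.026 in the first comparison. The cause of the other turns was not tested; those with another probe set follow from its own values. Signal near background limits Chek1 and Fancd2.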
